A study of Mus musculus with 2 samples.

Results

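The barcodes described here were the 227 cultured costal-cartilage-derived stem cells (CDSCs) with the highest fibrillar collagen transcript level, of 4543 cultured barcodes that passed the filter and 22694 barcodes deposited for the series. They were selected on measured values. Each barcode had a score, the mean over Col1a1, Col1a2 and Col3a1 of the gene's share of the barcode's unique molecular identifiers (UMIs) divided by the mean of that share over the filtered barcodes, and the top 5% by this score were taken as the collagen-highest cells. The other 4316 barcodes are called the rest. The levels of the 3 collagens are therefore a description of the choice, and every other gene was measured in the same cells, so all values below are descriptions without a test.

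CDSCs had been taken by collagenase digestion from the rib cartilage of newborn C57BL/6J mice that carried CD45.1 or ZsGreen, and sorted for cells that lacked CD45, a protein of blood cells, and carried CD51, an integrin subunit. The study asked how the cells change in culture, and sequenced 1 primary library and 1 library grown in medium with serum to passages 2 to 3. The tissue label reads bone marrow, although the study describes rib cartilage, and how many mice were pooled is not given in the sources used here. With 1 library per group no difference has a replicate check, and all intervals are exact 95% intervals that cover counting error only.

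Fibrillar collagens are the rope-like proteins that give bone, tendon, skin and scar their tensile strength. Col1a1 and Col1a2 encode the alpha chains that assemble into type I collagen, the main collagen of bone and tendon, and Col3a1 encodes the chain of type III collagen, abundant in skin, vessel walls and healing tissue. Type II collagen, encoded by Col2a1, takes their place in cartilage. The chains are hydroxylated and folded in the endoplasmic reticulum, trimmed outside the cell and cross-linked into fibrils. Cells that join high collagen output with contractile proteins such as alpha smooth muscle actin (Acta2) are known as myofibroblasts.

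The 3 genes share one repeat. Each codes for a triple helix built of triplets that begin with glycine, whose side chain is small enough for the centre of the helix. In the longest coding sequence of the annotation (GENCODE M21, GRCm38), the longest unbroken run of this repeat held 338 triplets in Col1a1, 339 in Col1a2 and 344 in Col3a1, which is 69.8%, 74.1% and 70.5% of the codons. Wholly inside the run lay 41, 42 and 42 coding exons. Each of them began with a glycine codon and held whole triplets, and 21, 23 and 24 of them were 54 bases long. The first such exon of each gene is shown to make the repeat visible, 5′ to 3′ on the plus strand, with the first codon of each triplet, a glycine codon, in capitals. Col1a1 exon 8 is at chr11:94939904-94939957, Col1a2 exon 8 at chr6:4515481-4515534 and Col3a1 exon 6 at chr1:45325360-45325413.
Col1a1: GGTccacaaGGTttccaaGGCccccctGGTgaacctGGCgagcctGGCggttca
Col1a2: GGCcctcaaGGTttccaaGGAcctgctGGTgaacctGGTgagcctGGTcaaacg
Col3a1: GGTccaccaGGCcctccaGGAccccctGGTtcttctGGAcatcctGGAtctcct
Of the 54 bases, 42 were identical between Col1a1 and Col1a2, 35 between Col1a1 and Col3a1 and 31 between Col1a2 and Col3a1. Reads of the assay come from transcript 3′ ends, so they do not cover these exons.

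Col1a2 and Col3a1 set the score more than Col1a1 did. Levels are given as CPM, the UMIs of a gene summed over a group and scaled to the UMIs of all genes in it. Col1a1 (ENSMUSG00000001506, chromosome 11, 94936224 to 94953042, GRCm38) was at 1720 CPM (1698 to 1742) in the collagen-highest cells and 662 CPM (659 to 665) in the rest, a log2 ratio of 1.38. Col1a2 (ENSMUSG00000029661, chromosome 6, 4504814 to 4541544) was at 1656 CPM (1635 to 1678) and 123 CPM (122 to 125), a log2 ratio of 3.75. Col3a1 (ENSMUSG00000026043, chromosome 1, 45311538 to 45349706) was at 992 CPM (975 to 1009) and 115 CPM (114 to 116), a log2 ratio of 3.11. The collagen-highest cells thus held 36.8% of all Col1a2 counts of the filtered barcodes, 27.3% of the Col3a1 counts and 10.1% of the Col1a1 counts, with 4.16% of the UMIs.

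The score weighs each gene against its own mean. The ratio of the type I collagen chains is made of genes of the score, and how far the choice moved it was not tested. The summed UMIs gave 1.04 Col1a1 for each Col1a2 in the collagen-highest cells and 5.37 in the rest. Most cultured cells had Col1a1 transcripts but few of its partner chain. Among the rest, the median barcode was at 522 CPM of Col1a1 and 23.9 CPM of Col1a2. Col1a2 contributed on average 48.2% of the summed relative level of the 3 genes in a collagen-highest cell, Col3a1 37.1% and Col1a1 14.7%.

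The range over single cells was wide. Col1a1 ran from 0 to 4562 CPM per collagen-highest cell with a median of 1593, Col1a2 from 0 to 4454 with a median of 1581, and Col3a1 from 37.2 to 3505 with a median of 967. All 3 genes were above their mean in 187 of the 227 cells, and 2 of them in another 32. Taken alone, Col1a2 would have placed 185 of these cells in its own top 5%, Col3a1 156 and Col1a1 79. Scores ran from 3.73 at the last cell taken to 13.7, with a median of 5.04 against 0.533 in the rest. The last cell taken had 61 UMIs of Col1a1, 57 of Col1a2 and 16 of Col3a1 among 41935. The first cell left out, at a score of 3.71, had 202, 159 and 12 among 104887. Within 1.1 times of the cut lay 33 cells above and 37 below, so the boundary was not a gap.

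**Figure D1:**
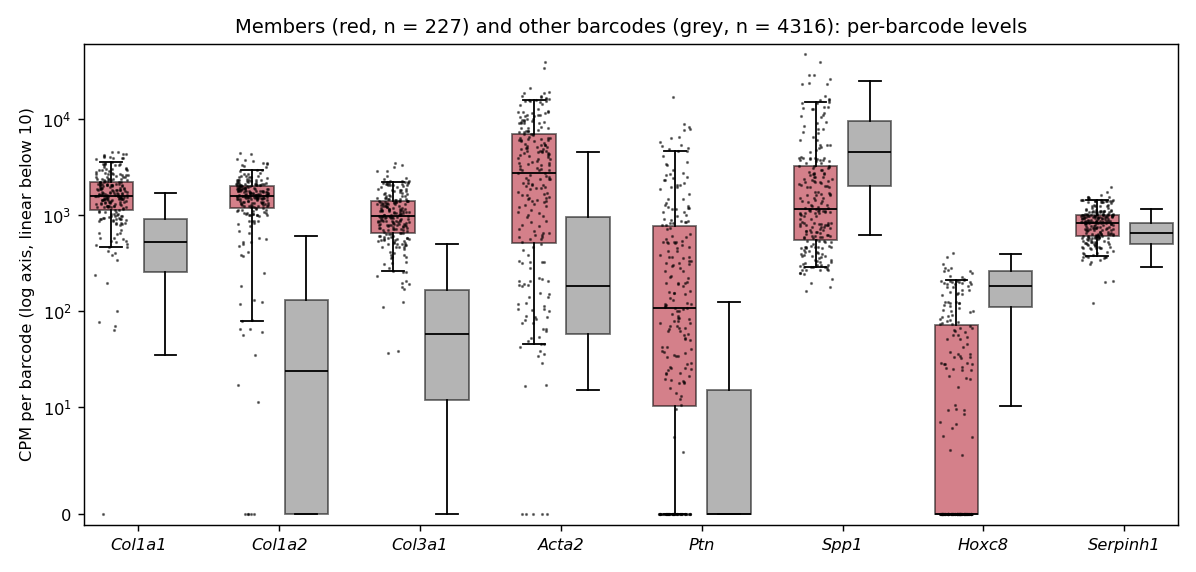
CPM per barcode (y axis, log scale that is linear below 10) for 8 genes in the 227 collagen-highest cells (red, with each cell as a point) and the 4316 others (grey). Boxes span the middle 50% with the median, and whiskers the 5th to 95th percentile. The 3 collagens are high by choice, Acta2 and Ptn spread over orders of magnitude among the chosen cells, most of them have no Hoxc8 count, and Serpinh1 differs little.

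The collagen-highest cells were shallower than the rest. Their median was 50206 UMIs with 7133 genes, against 67446.5 UMIs with 7790.5 genes, and the median mitochondrial share was 2.39% against 2.35%. The group held 13677598 UMIs and the rest 315237041, so that 3 counts were 0.219 CPM and 0.00952 CPM. None of the chosen cells had a barcode that was also kept in the primary library, against 12 shared barcodes overall. Cells among the presumed doublets made up 3.96% of the collagen-highest cells and 10.2% of the rest. Blood cell genes were at or near 0: Ptprc (CD45) had 0 counts and the 12 haematopoietic markers summed to 10.3 CPM, against 34.4 CPM in the rest.

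Over the 8871 genes with at least 10 CPM in either group, the median log2 ratio of the collagen-highest cells over the rest was 0.06. At least a 2-fold higher level was found for 384 genes (4.33%) and at least a 2-fold lower level for 132 (1.49%). At 1.5-fold these were 904 genes (10.2%) and 385 (4.34%). A 4-fold difference was found for 109 genes upward and 24 downward. When cells were chosen on one random part of their UMIs and measured in the other, 382 and 139 genes passed 2-fold, and the 3 collagens kept log2 ratios of 1.38, 3.73 and 3.08.

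Secreted factors and cell surface proteins were among the genes with the largest ratios. Ptn, a heparin-binding growth factor, was at 898 CPM against 28.0 CPM, a log2 ratio of 5.0. Its level per collagen-highest cell ran from 0 to 17029 CPM with a median of 107, and 1 cell held 18.8% of the counts. Thy1 (CD90), a surface protein of many fibroblasts, was at 101 CPM against 4.04 CPM, a log2 ratio of 4.65, with 107 of the 227 cells above the 95th percentile of the rest.

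The other genes named among the 15 highest had log2 ratios from 3.15 to 4.37. They were Actg2, a smooth muscle actin, at 132 against 6.38 CPM, of which 29.4% came from 1 cell, and Cnn1, calponin of smooth muscle, at 485 against 41.8 CPM. Igfbp5, which binds insulin-like growth factors, was at 119 against 6.01 CPM. Sfrp1, a secreted inhibitor of Wnt signalling, was at 263 against 20 CPM. Itga8, the alpha8 integrin subunit, was at 65.4 against 4.12 CPM. Abi3bp, an extracellular matrix protein, was at 192 against 14.2 CPM. Il1rn, the interleukin-1 receptor antagonist, Slc1a3, a glutamate transporter, and Crabp1, which binds retinoic acid, were at 51.3, 197 and 63.5 CPM against 2.94, 12.4 and 5.68. Adamtsl3, Hecw2 and Edil3 completed the list at 409, 91.8 and 113 CPM against 41.9, 9.49 and 12.7.

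At the lower end stood acute-phase genes, aldehyde dehydrogenases and a homeobox gene. Saa3, serum amyloid A3, was at 5.12 CPM against 74.3 CPM, a log2 ratio of -3.86. Hp (haptoglobin) and Lcn2 (lipocalin 2) were at 19.7 and 11.2 CPM against 120 and 60.3. Klk8, Wnt10a, Scn3a and 2200002D01Rik were at 12.2, 18, 18.8 and 29.8 CPM against 72.1, 73.6, 75.8 and 117. Aldh1a1 and Aldh1a7, of the aldehyde dehydrogenase family, were at 99.4 and 58.1 CPM against 389 and 223. Aldh1a1 and Aldh1a7 are close paralogs, and how reads were divided between them was not tested. Hoxc8, which helps to set position along the trunk, was at 44.7 CPM against 199 CPM, a log2 ratio of -2.15. Its median was 0 in the collagen-highest cells and 184 CPM in the rest.

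Contractile genes were the list with the largest median apart from the rule genes. All 13 that passed the minimum were higher, 9 of them at least 2-fold against 4.33% of all genes, with a median log2 ratio of 1.6. Acta2 was at 5187 CPM (5149 to 5225) against 1054 CPM (1050 to 1057), a log2 ratio of 2.30. It ran from 0 to 38935 CPM per collagen-highest cell with a median of 2724, against a median of 181 in the rest. Tagln, the actin-binding protein transgelin, was at 3575 against 1183 CPM. Myh11, the myosin heavy chain of smooth muscle, was at 35.5 against 1.39 CPM, a log2 ratio of 4.67, with 19.2% of its counts in 1 cell and a median of 0. Lmod1, which nucleates actin filaments in smooth muscle, was at 178 against 28.4 CPM. The broadly expressed Cald1, Cnn2 and Tpm4 had log2 ratios of 0.20, 0.56 and 0.57. Only part of the cells carried this: 71 of the 227 (31.3%, interval 25.3% to 37.7%) were also in the top 5% by Acta2 and Tagln, and without them the list median was 0.71.

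Smooth muscle genes are classically driven by serum response factor through a DNA element called the CArG box. In the RefSeq promoter table (GRCm38.p6), a strict CArG box lay within the 250 bases before the start of 439 of 27025 genes (1.62%), counting both strands. It was found in 2 of the 11 contractile genes that had an entry, and in neither Col1a2 nor Col3a1, the rule genes with one. Both are shown on the plus strand with the box in capitals. The Myl9 window is at chr2:156775288-156775327, with the box 161 to 152 bases before the start, and the Cnn2 window at chr10:79988529-79988568, with the box 56 to 47 bases before it.
Myl9: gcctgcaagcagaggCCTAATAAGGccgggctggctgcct
Cnn2: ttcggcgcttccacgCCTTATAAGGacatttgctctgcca
Myl9, a myosin light chain, was at 597 CPM in the collagen-highest cells against 153 CPM, a log2 ratio of 1.97, and Cnn2, a broadly expressed calponin, at 479 against 325 CPM. A letter match is a description and no evidence of binding. Looser matches and boxes further from the start were not searched for, so a gene without a match here may still have one.

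Other collagens were higher for part of the list. Among other fibril collagens, Col5a1 and Col11a1, whose chains start and limit fibrils, were at 277 and 834 CPM against 132 and 430, log2 ratios of 1.07 and 0.96. Col5a2 was at 1353 against 991 CPM, a log2 ratio of 0.45. The cartilage collagen Col2a1 went the other way, at 287 against 499 CPM, a log2 ratio of -0.80. Of the 8 fibril-associated and beaded-filament collagens over the minimum, 7 were higher and 3 of them at least 2-fold, against 4.33% of all genes. Col6a3, a chain of the type VI collagen around cells, was at 297 against 57.2 CPM, a log2 ratio of 2.38, and 129 of the 227 cells lay above the 95th percentile of the rest. Its partner chains Col6a1 and Col6a2 had log2 ratios of 0.57 and 0.76. Col8a2 and Col12a1 had 1.53 and 1.30. In the basement membrane list Col4a1 and Col4a2, the paired chains of type IV collagen, had 1.48 and 1.14, the laminin and nidogen genes lay between 0.12 and 0.89, and Agrn was lowest at -0.63.

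Small leucine-rich proteoglycans, which bind collagen fibrils, were divided. Aspn (asporin), Lum (lumican) and Podn (podocan) were at 190, 47.0 and 12.1 CPM against 49.6, 13.6 and 3.76, log2 ratios of 1.93, 1.79 and 1.68. Bgn (biglycan), the most abundant of them, was at 1299 against 1199 CPM, and Dcn (decorin) at 55.6 against 65.6 CPM. Matricellular genes showed the same division. Postn (periostin) was at 25 against 2.12 CPM, a log2 ratio of 3.56, and Vcan (versican) at 79.7 against 14.8 CPM, a log2 ratio of 2.42. Fn1 (fibronectin), Sparc and Thbs1 had log2 ratios of 0.12, 0.20 and 0.11, and Fbln5, an elastic fibre protein, of -0.93.

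The enzymes that process collagen had a median log2 ratio of 0.26, against 0.45 for the fibril collagens that the rule did not use. Of 23 modifying and folding genes over the minimum, 2 were at least 1.5-fold higher against 10.2% of all genes, and none was 1.5-fold lower. These were P4ha3, a prolyl hydroxylase subunit, at 57.5 against 26.3 CPM (log2 ratio 1.13), and Fkbp14, a folding enzyme, at 44.7 against 29.0 CPM (0.62). Serpinh1, the collagen chaperone HSP47, was at 824 against 687 CPM, a log2 ratio of 0.26 (0.23 to 0.29). P4hb and Ppib, a prolyl hydroxylase subunit and a peptidyl-prolyl isomerase, had 0.04 and 0.00. The cross-linking enzyme Lox was at 1170 against 1177 CPM. Tll1, a protease of the group that removes propeptides, was at 78.5 against 25.7 CPM, a log2 ratio of 1.61. None of 18 endoplasmic reticulum stress genes passed 1.5-fold in either direction, and Hspa5, the chaperone BiP, had a log2 ratio of 0.19.

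Transforming growth factor beta ligands, which raise collagen and Acta2 transcription in fibroblasts, were not alike. Tgfb3 and Tgfb2 were at 94.8 and 148 CPM against 23.3 and 77.6, log2 ratios of 2.02 and 0.94. Tgfb1 was at 21.9 against 32.5 CPM, a log2 ratio of -0.57. The activin subunit Inhba was at 231 against 97.1 CPM (1.25), and Ltbp1, which binds latent ligand, at 580 against 985 CPM (-0.76). The receptors Tgfbr1, Tgfbr2 and Tgfbr3 had 0.38, -0.38 and -0.03. Ccn2, a target gene kept in the matricellular list, had 1.05, and Smad7, a feedback inhibitor, 0.28. Of the 17 genes of the transforming growth factor list, 2 passed 2-fold upward and none downward, against 4.33% and 1.49% of all genes.

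**Figure D2:**
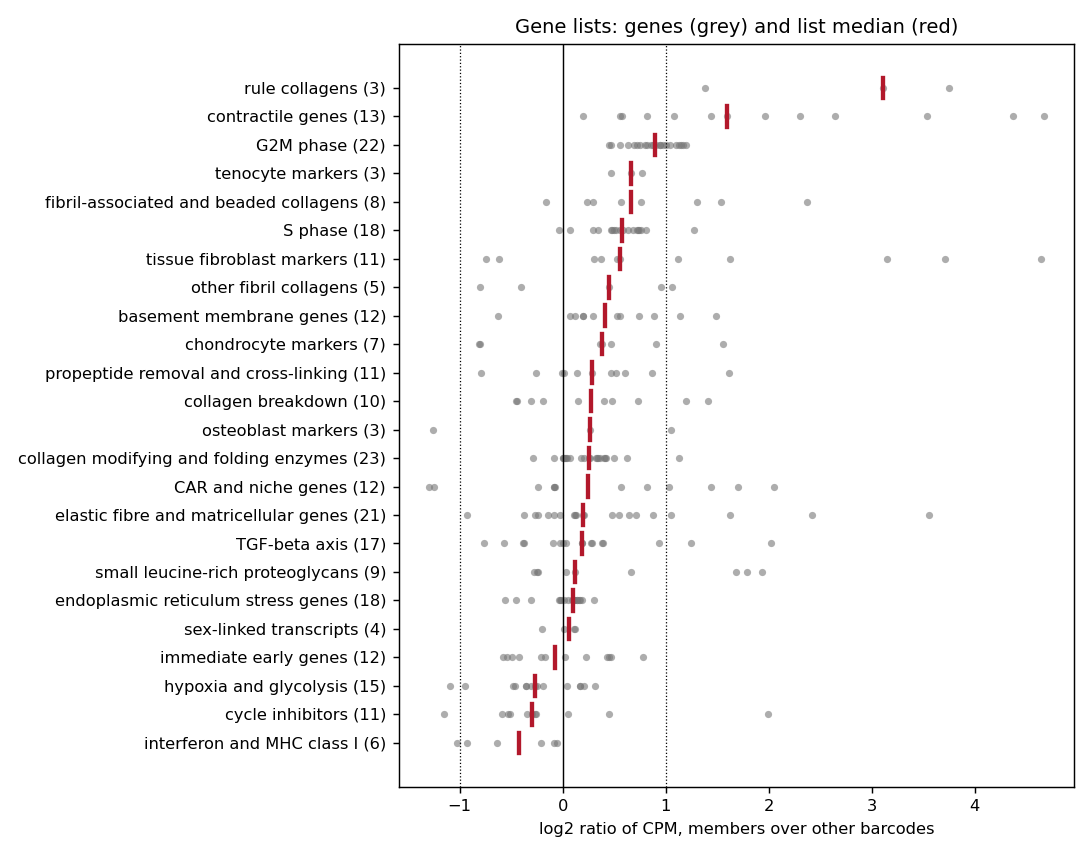
Log2 ratios of CPM, collagen-highest cells over the rest (x axis), for the genes of each list with at least 10 CPM in either group (grey points, number in brackets) and the list median (red bar), for lists with 3 or more such genes. Dotted lines mark 2-fold. All contractile and G2M genes lie right of 0, and the collagen modifying and folding enzymes and the endoplasmic reticulum stress genes lie close to it.

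Markers of skeletal cell types were mixed. Spp1 (osteopontin), a matrix protein of bone that the study used as a stromal marker, was at 2821 CPM (2793 to 2849) against 6737 CPM (6728 to 6746), a log2 ratio of -1.26. The median was 1141 CPM per collagen-highest cell and 4480 CPM in the rest. Of 13 osteoblast markers, 3 passed the minimum, among them Runx2 with a log2 ratio of 0.26. Of 8 tenocyte markers only Scx, Fmod and Egr1 did, with 0.77, 0.66 and 0.47. Of 16 chondrocyte markers 7 passed, with Sox9 at 104 against 80.3 CPM and Sox5 at 153 against 269 CPM. Tissue fibroblast markers held some of the largest ratios of all lists, 5 of 11 at least 2-fold higher against 4.33% of all genes. Beside Thy1 and Sfrp1 these were Igf1, insulin-like growth factor 1, at 312 against 35.1 CPM, a log2 ratio of 3.15, Mfap5 (1.63) and Twist1 (1.12). Prrx1 and Ly6a had 0.56 and 0.53. The 2 lower ones of the 11 were Twist2 (-0.61) and Sfrp4 (-0.74).

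Genes by which stromal cells support blood stem cells were mixed as well. Cxcl12, the chemokine that retains them, was at 523 CPM against 550 CPM, a log2 ratio of -0.07, and 7 of the 227 cells were in the top 5% by Cxcl12. Kitl, stem cell factor, was at 26.6 against 63.3 CPM, a log2 ratio of -1.25. Vcam1, an adhesion molecule, was at 69.3 against 16.8 CPM, a log2 ratio of 2.05, and Angpt1 (angiopoietin 1) at 47.4 against 17.4 CPM. Ebf3, a transcription factor of marrow stromal cells, had 1.70 and Ebf1 -0.09. Pdgfra was at 80.9 against 85.8 CPM.

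Cell cycle genes were higher in the summed counts. All 22 G2M genes were higher, 7 at least 2-fold against 4.33% of all genes, with a median log2 ratio of 0.89, and 17 of 18 S phase genes, with a median of 0.57. This did not hold for most of the cells. In the clustering described below, 126 of the 227 cells fell in a cluster where their G2M genes summed to 293 CPM, against 786 CPM in the rest, with Top2a at 24.0 against 70.3 CPM. The 18 and 24 cells in clusters led by mitotic and histone genes summed to 9405 and 2432 CPM. At 5000 UMIs per cell, 27.8% (22.0% to 34.1%) of the collagen-highest cells and 20.3% (19.1% to 21.5%) of the rest had at least 3 UMIs of the G2M list. Without thinning the shares were 76.7% and 78.1%, at unequal depth. Of 11 cell cycle inhibitors, 8 were lower and 3 higher, with a median log2 ratio of -0.30. The largest differences were those of Cdkn1c (p57), at 117 against 29.4 CPM, a log2 ratio of 1.99, and Cdkn2a. The latter, a gene of senescent cells, was at 43.9 against 97.8 CPM, a log2 ratio of -1.16.

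Some genes stood apart mainly near the top of the score. Over 20 bins of about 227 cells ordered by score, Col1a1 went from 45.5 CPM in the lowest bin to 1720 CPM in the collagen-highest cells. Ptn stayed between 7.25 and 52.5 CPM up to the 18th bin, was at 147 CPM in the 19th and at 898 CPM in the collagen-highest cells. Thy1 rose earlier too, from 0.844 CPM in the lowest bin to 10.4 CPM in the 17th. It was at 10.7 CPM in the 18th bin, 32.9 CPM in the 19th and 101 CPM in the last. Hoxc8 lay between 160 and 224 CPM in the first 18 bins, then at 138 CPM and 44.7 CPM. Grem1, a secreted inhibitor of bone morphogenetic proteins, was at 1580 CPM in the lowest bin and 401 CPM in the last. Serpinh1 was at 534 and 824 CPM.

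**Figure D3:**
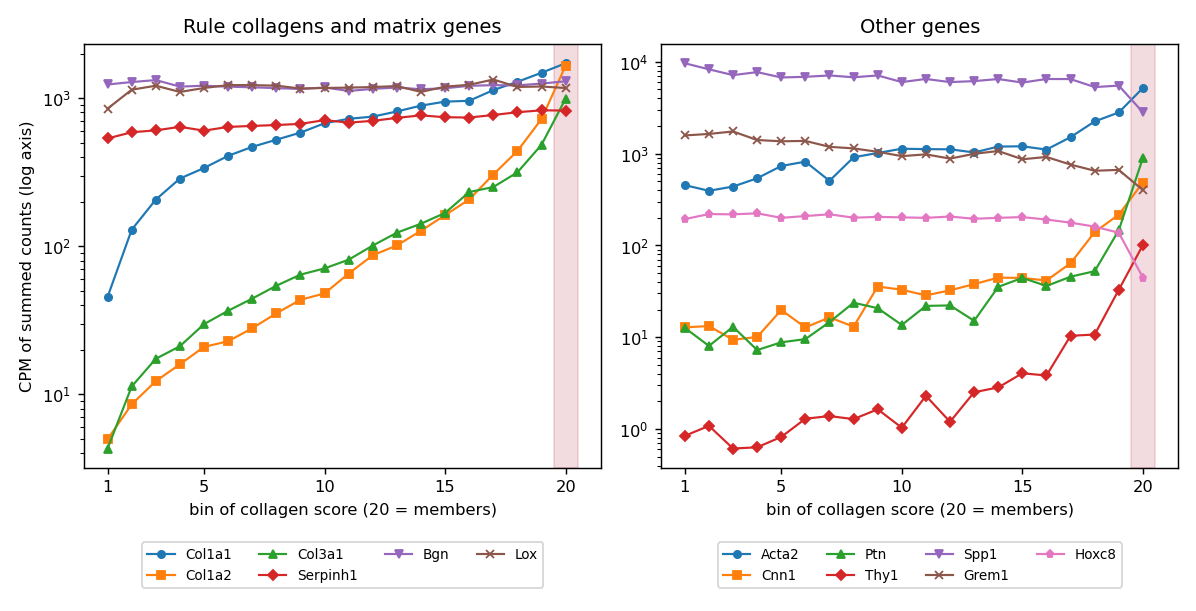
CPM of summed counts (y axis, log scale) in 20 bins of cells ordered by collagen score (x axis, each bin with 227 or 228 cells, shaded bin 20 the collagen-highest cells). The 3 rule collagens rise over the whole range by construction, whereas Ptn and Hoxc8 change mainly in the last bins. Thy1 and Cnn1 also rise before them, and Bgn and Lox stay near their level.

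The collagen-highest cells fell into more than 1 kind. The filtered cells were clustered without the 3 collagens, which gave 10 clusters. The smallest, cluster 10, held 188 cells, of which 126 (67.0%, interval 59.8% to 73.7%) were collagen-highest, 55.5% of the group. Its 10 leading genes included Ptn, Thy1, Rpl39l, Crabp1, Itga8, Igfbp5, Cnn1 and Il1rn. The other 101 cells were spread over all 9 other clusters, with 32 in cluster 1, led by Sorbs2 and Gpc3, 24 in cluster 8, led by histone genes, 18 in cluster 6, led by the mitotic genes Cenpf and Aspm, 14 in cluster 4, led by Mmp13, and 1 to 4 in each of the rest. Of the 20 nearest neighbours of a collagen-highest cell, 52.0% on average were collagen-highest too, against 1.58% for other cells. The clusters came from the same counts, so the values by cluster are descriptions, and the sets below were formed after values by cluster had been seen.

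Within clusters 6 and 8, the collagen-highest cells had more Acta2, Ptn and Thy1 and less Hoxc8 than the other cells of the cluster. Acta2 was at 7030 CPM in the 18 collagen-highest cells of cluster 6 and 1336 CPM in its other 374 cells, Ptn at 619 and 22.1 CPM, Thy1 at 111 and 5.97 CPM, and Hoxc8 at 10.8 and 201 CPM. In cluster 8, the 24 collagen-highest cells had Acta2 at 6655 against 1875 CPM, Ptn at 442 against 33.9 CPM and Hoxc8 at 34.4 against 179 CPM. In cluster 10, the 126 collagen-highest cells had Acta2 at 5994 CPM, Cnn1 at 592 CPM and Thy1 at 122 CPM. The 62 other cells of that cluster had Acta2 at 6772 CPM and Cnn1 at 651 CPM, both above the collagen-highest cells, and Thy1 at 90.2 CPM. Ptn was at 1294 against 268 CPM and Hoxc8 at 17.5 against 75.6 CPM. Clusters 1 and 4 were different. Their 32 and 14 collagen-highest cells had Acta2 at 1302 and 227 CPM against 1049 and 187 CPM in the other cells of the cluster, and Hoxc8 at 163 and 133 CPM against 185 and 193. Col1a1 was at 2889 CPM in those of cluster 1, and Col3a1 at 1821 CPM in those of cluster 4.

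**Figure D4:**
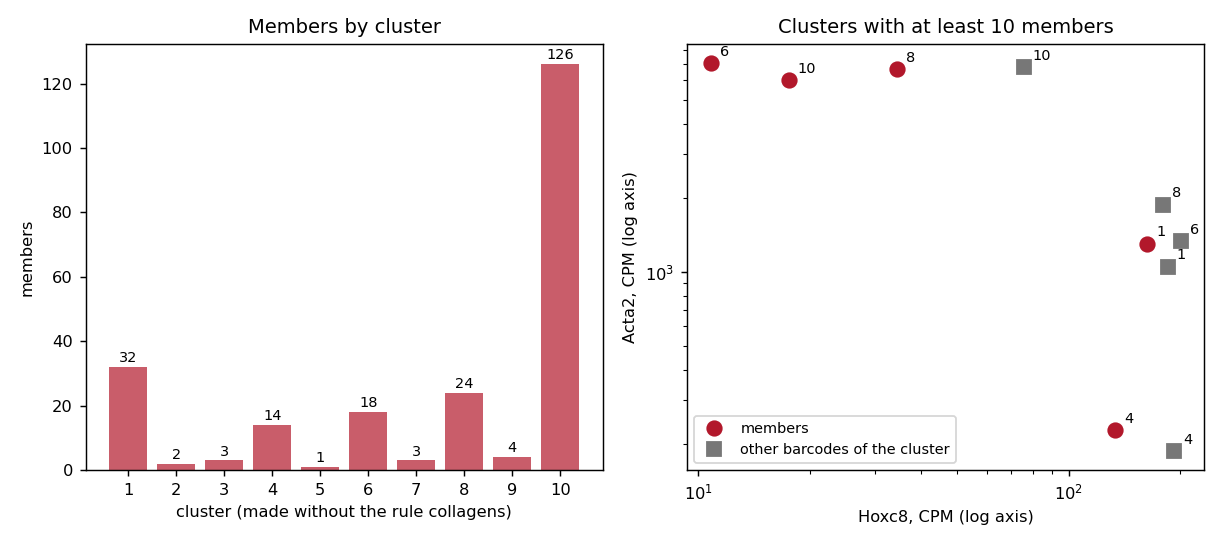
Left: number of collagen-highest cells (y axis) in each of 10 clusters (x axis) made without the 3 collagens, with 126 in cluster 10. Right: Acta2 against Hoxc8 in CPM (both log axes) for the clusters with at least 10 collagen-highest cells, these cells as red circles and the other cells of the cluster as grey squares, with cluster numbers. The collagen-highest cells of clusters 6, 8 and 10 lie at high Acta2 and low Hoxc8, those of clusters 1 and 4 beside the other cells of their cluster.

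Of the genes named among the 15 with the largest ratios, all but Edil3 were higher in the collagen-highest cells of clusters 6, 8 and 10 than in the others. These genes had been ranked on all 227 cells together, and several of them were leading genes of cluster 10. Their split between the sets thus follows in part from how list and sets were made, and is no separate finding. Clusters 6, 8 and 10 together held 168 of the 227 collagen-highest cells (74.0%) and 20.1% of all filtered cells. Thy1 was at 125 CPM (118 to 132) in the 168 cells, with a count in 110 of them, and at 0.380 CPM (0.00961 to 2.12) in the other 59, with a count in 1. In the rest, 7.62% of cells had a Thy1 count. Across the 168 and the 59 cells, Ptn was at 1096 and 69.1 CPM, Cnn1 at 593 and 31.5 CPM, and Acta2 at 6217 and 868 CPM. The contractile list had a median log2 ratio over the rest of 1.83 in the 168 cells and 0.20 in the 59, where Acta2 was at -0.28. The G2M list had 1.2 and -3.27, but within the 168 cells the 126 of cluster 10 were low, as given above. Clusters 6 and 8, led by mitotic and histone genes, were placed in the first set, while the rest kept such cells. The G2M values of the 2 sets therefore follow from how the sets were formed and are no finding about them. Median depth was 53464 UMIs in the 168 cells and 38673 in the 59.

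The 59 other cells had the collagens with Acta2, Tagln and Cnn1 below the rest, while 8 of the 13 contractile genes were above it. Among these were Tpm1, a tropomyosin, at 2072 against 1188 CPM, and Lmod1 at 45.6 against 28.4 CPM. Col1a1 was at 2166 CPM (2110 to 2223), above the 1613 CPM (1590 to 1637) of the 168 cells, Col3a1 at 1082 CPM against 971 CPM, and Col1a2 at 979 CPM against 1817 CPM. The Col1a1 to Col1a2 ratio was 2.21 in the 59 cells and 0.888 in the 168. Lum was at 106 CPM in the 59 cells, 32.9 CPM in the 168 and 13.6 CPM in the rest, and Edil3, an integrin-binding matrix protein, at 179, 96.9 and 12.7 CPM. Cdkn1c was at 204, 96.0 and 29.4 CPM. Igf1 and Col6a3 were above the rest in both sets, at 128 and 169 CPM in the 59 cells and 355 and 327 CPM in the 168. Spp1 was at 7352 CPM in the 59 cells and 1741 CPM in the 168. Col4a1 was at 118 CPM in the 59 cells, against 117 CPM in the rest and 378 CPM in the 168. Taken alone against the rest, the 59 cells had 263 of 8843 genes at least 2-fold higher and 183 lower. The 168 cells had 503 of 8891 higher and 220 lower. The 59 cells held fewer UMIs in all, so counting error was larger for them.

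**Figure D5:**
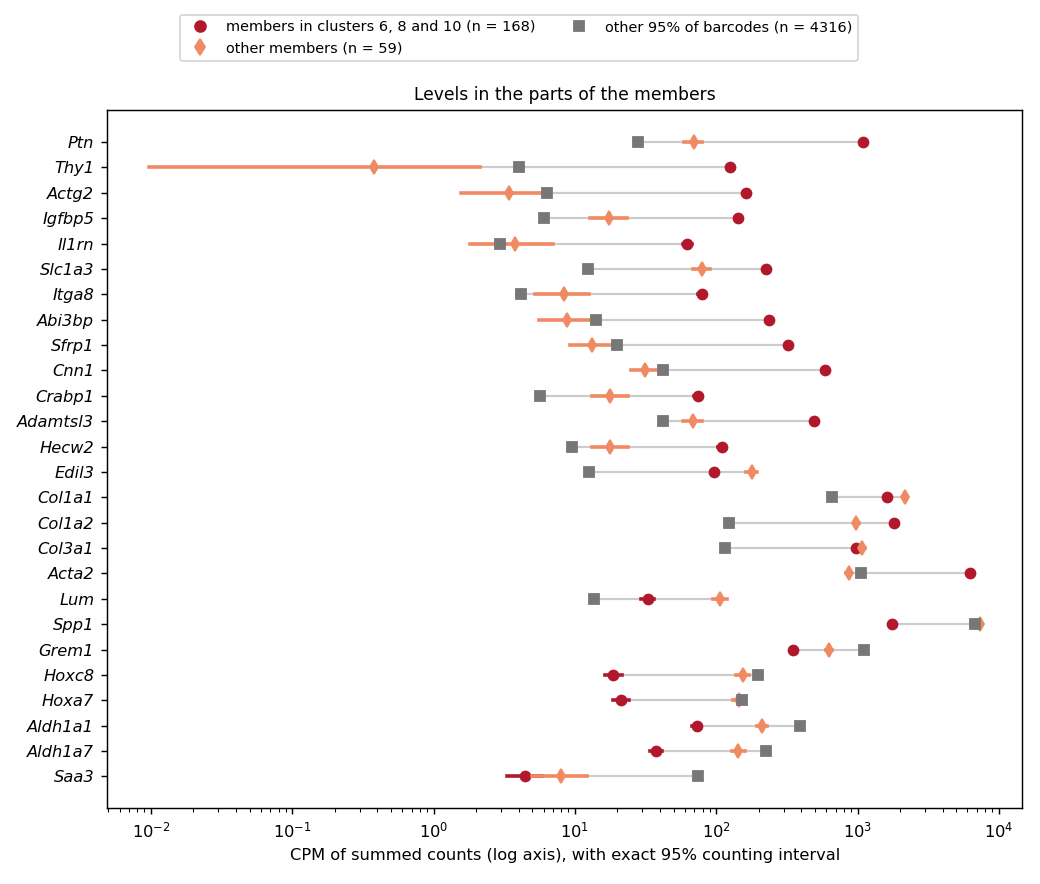
CPM of summed counts (x axis, log scale) with exact 95% counting intervals for 26 genes in the 168 collagen-highest cells of clusters 6, 8 and 10 (red circles), the other 59 (orange diamonds) and the rest (grey squares). For Thy1, Cnn1 and Acta2 the 59 cells lie at or below the rest, while all 3 collagens are high in both sets.

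Transcripts of Hoxa and Hoxc genes were low in the first set. That set was formed after values by cluster, Hoxc8 among them, had been seen, so the Hox levels of the 2 sets describe the split. Hoxc8 was one of the 10 lowest genes by rule, and the other Hox genes were taken up after its value had been seen. Of 39 Hox genes in the files, 14 passed the minimum, and in all 227 cells 9 of these were at least 2-fold lower than in the rest (background 1.49%) and 3 at least 2-fold higher. All 4 Hoxa and all 5 Hoxc genes were lower, from -0.55 for Hoxc4 to -2.15 for Hoxc8. Among Hoxb genes the posterior Hoxb9 and Hoxb7 were lower (-2.47 and -2.01), whereas Hoxb2, Hoxb3 and Hoxb4 were higher (1.24, 1.81 and 1.24). Hoxc8 was at 18.7 CPM (16.3 to 21.5) in the 168 cells, 154 CPM (139 to 170) in the 59 and 199 CPM in the rest. Hoxa7 was at 21.1, 145 and 152 CPM. Summed over the 20 Hoxa and Hoxc genes, the median was 103 CPM per cell in the 168 cells, 525 CPM in the 59 and 623 CPM in the rest, with 25th to 75th percentiles of 64.9 to 182, 344 to 691 and 459 to 786 CPM.

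Free RNA in the droplets can give UMIs of genes that a cell does not express. As a check, 60 filtered cultured barcodes had counts of at least 3 haematopoietic markers, with Ptprc at 16.1 CPM and Lyz2 at 487 CPM, and none was collagen-highest. They had Col1a1 at 544 CPM, Col1a2 at 167 CPM and Col3a1 at 118 CPM, against 662, 123 and 115 CPM in the rest. Their median depth was 102056 UMIs, so they need not be single blood cells, and the part of free RNA was not tested. At 5000 UMIs, Thy1 had a count in 0 of 60 of them, for which the interval reached 5.96%, against 26.0% (20.4% to 32.2%) of the collagen-highest cells. For Ptn the shares were 8.33% and 47.1%, and for Hoxc8 48.3% and 13.7%.

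The same rule in the primary library gave 547 cells. They had a median of 8236 UMIs, against 10551.5 in the other 10412 primary cells. Col1a1 was at 2802 CPM in them and 5.66 CPM in the other primary cells, Col1a2 at 4888 and 467 CPM, and Col3a1 at 1440 and 40 CPM. Acta2 was at 41.2 CPM and 129 CPM, and Cnn1 at 2.94 and 6.18 CPM. The contractile list as a whole went the other way, at a summed 1193 CPM and 775 CPM. Postn was at 1621 and 6.04 CPM, compared with 25 and 2.12 CPM in culture, and Igf1 at 143 and 1.04 CPM. Col2a1 was at 32430 CPM in these primary cells and 54451 CPM in the others. Hoxc8 was at 93.9 and 130 CPM. Primary and cultured cells were 1 library each at unequal depth, so culture and library cannot be told apart.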

How the data were processed

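A primary and a cultured library (10x Genomics 3′ chemistry) had been sequenced. Each deposited matrix held unnormalized UMI counts, which the authors had made with Cell Ranger 7.0.0 on mm10. The annotation release is not given in the sources used here. Groups came from the treatment labels. Members and gene lists were chosen with earlier results of these data known.

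Kept barcodes had 500 or more genes, 5000 or more UMIs and a mitochondrial share of 10% or less, 4543 of 10798 cultured and 10959 of 11896 primary. Doublets were not removed, because the automatic threshold of Scrublet (scanpy 1.11.5) marked 1 of 5338. Presumed doublets were the 461 highest scores. Counts were summed per group and scaled to CPM. Ratios used counts raised to at least 3. Intervals were Poisson, binomial (Clopper-Pearson) or conditional, all exact at 95%. Cells are not replicates, so no test was run. Clusters came from Leiden (leidenalg 0.10.2) at resolution 0.5 on 20 neighbours, 10 principal components and 2000 variable genes. Named genes were the rule collagens, the 15 highest and 10 lowest ratios among genes with at least 50 CPM without ribosomal protein (Rpl and Rps) and mitochondrial genes, list members with at least 10 CPM and study markers. A few genes that these choices named are not reported here. The calculation was tested on simulated data.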

Additional observations from a re-analysis of the deposited data

Results flagged for a closer look

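The 6255 cultured barcodes that the filter left out also held the 3 collagens, a signal outside the cells described above. Summed over these barcodes, Col1a1 was at 721 CPM, Col1a2 at 231 CPM and Col3a1 at 223 CPM. Of the cultured barcodes, 6159 had fewer than 5000 UMIs and 131 over 10% mitochondrial UMIs. Whether they hold cells or free RNA was not tested.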

How the results depend on the processing

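Settings were changed one at a time. The 2-fold counts, 384 higher and 132 lower, stayed within 1.5 times except for 225 and 50 with the top 10%, 774 and 374 with a minimum of 1 CPM, 179 and 46 with 50 CPM, and 70 lower without Col1a2 in the score. The cause was not tested, apart from the minimum, which changes how many genes are counted. Of 1320 values of the 88 named genes past 2-fold, 1319 kept their sign and 1170 stayed past 2-fold. Among named genes past 1.5-fold, signs turned with the top 2.5% for Mmp13 (-1.26), without Col3a1 in the score for Mmp13 (-0.40), with the top 10% for Sfrp4 (0.28) and Ndufa4l2 (0.068), and without Col1a2 for Sfrp4 (0.87) and Ndufa4l2 (0.084). Without the cells with the highest S and G2M share, Chaf1b was at -0.35, Cdk1 at -0.057, Ccna2 at -0.75, Aurka at -0.23, Aurkb at -1.22, Kif11 at -0.54, Nusap1 at -0.49 and Hmmr at -0.53, and the G2M median at 0.28. Of 2 alternatives chosen after seeing the data, leaving out members high in Acta2 and Tagln gave Aurkb at -0.12 and a contractile median of 0.71, and leaving out cluster 10 gave Cnmd at -1.45, a G2M median of 2.04 and an S phase median of 1.34. Smaller differences turned too. Among those printed, examples were Ly6a, which reached -0.35, Sox9 -0.20, Dcn 0.35, Tgfbr2 0.16, Cxcl12 0.24 and Pdgfra 0.27. No paired analysis was possible because each group is 1 library. Counts of 3 or fewer, under 0.219 CPM in the members, cannot be ranked at this depth.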
